A study of Mus musculus with 8 samples.

Results

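The Janus kinases (*Jak1*, *Jak2*, *Jak3* and *Tyk2*), the SOCS family members *Socs1*, *Socs2*, *Socs3* and *Cish*, the STAT inhibitor *Pias1* and the cytokine-induced kinase *Pim1* were examined in Th17 cells with and without TRIM28. These 10 genes were taken by symbol from a table of 13704 genes with reads in either library, and all 10 were listed. The study has 8 samples, of which the 2 RNA-seq libraries are described here, 1 for WT and 1 for KO. Both came from C57BL/6 naive CD4+ T cells grown for 3 days with 0.5 ng/ml TGFβ and 20 ng/ml IL-6 and then re-stimulated with anti-CD3. The KO carried floxed *Trim28* alleles and the CD4cre transgene (TRIM28fl/flxCD4cre), so Cre was driven by the *Cd4* promoter. WT cells are labelled wild type, with no Cre named. Because each genotype has 1 library, no difference below has a replicate check: the test compares the reads of these libraries, not the genotypes, and every interval covers counting error only.

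Cytokine receptors of this class have no kinase of their own. A JAK bound to the receptor tail phosphorylates it once cytokine has bound, STAT proteins dock there, and phosphorylated STATs enter the nucleus. IL-6, the cytokine that drives Th17 differentiation, signals through gp130 with JAK1, JAK2 and TYK2 and mainly activates STAT3, whereas IL-2 and IL-21 signal through the common gamma chain with JAK1 and JAK3. SOCS proteins are induced by STATs and close the loop: SOCS3 binds gp130 and JAKs, SOCS1 blocks the JAK kinase domain, and CISH and SOCS2 are classical products of STAT5 activity. PIAS1 is a SUMO ligase that restrains STAT activity, and PIM1 is a serine/threonine kinase induced by both STAT3 and STAT5.

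The WT library held 6650066 reads and the KO library 6185108. *Trim28* had 4485 reads in WT and 180 in KO, a log2 fold change of -4.53 with a 95% interval from -4.76 to -4.32, so the KO library matched its label while some *Trim28* reads remained. Of 10 CD4 T cell markers 9 had reads, and their summed level was 5769 CPM (reads per 1000000 library reads) in WT and 5313 CPM in KO. The sum is weighted to the deepest genes: 4 of the 9 had log2 fold changes below 0, and their median was 0.18. Summed B cell markers were at 12.8 CPM and 7.44 CPM, CD8 and NK cell markers at 16.7 and 16.0 CPM, myeloid and dendritic cell markers at 1.80 and 1.78 CPM, and the 6 erythroid markers were at 0 in both. The part of the lower B cell marker level in the results below was not tested. In a bulk sample, fewer expressing cells and less RNA per cell cannot be told apart.

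None of the 10 genes was called different between the libraries. A gene was called when its change was at least 2-fold and its adjusted p was below 0.05 by an exact binomial test (two-sided) on its reads in the pair of libraries, with Benjamini-Hochberg adjustment over the 10881 genes whose reads summed to 10 or more. By that rule 8.11% of all tested genes were called, 5.53% lower and 2.57% higher in KO, and among the 5190 genes with at least 400 reads 2.81% were called. The 10 log2 fold changes ran from -0.56 (*Jak2*) to 0.29 (*Tyk2*), with 6 below 0 and a median of -0.14, beside -0.02 over all tested genes. Counting alone limited this little for most of them: for 8 of the 10, the whole 95% interval lay within a 2-fold change either way, and the intervals of *Jak2* and *Tyk2*, the pair with the fewest reads, did not. A 1.5-fold limit also called 0 of the 10, against 11.5% of all genes lower and 7.02% higher. When the 2-fold limit was dropped, a setting chosen after seeing the data, 4 of the 10 were lower in KO (*Jak1*, *Socs2*, *Cish* and *Pim1*) and 0 were higher, and 43.8% of all tested genes passed, 22.4% lower and 21.4% higher. Among the genes with at least 400 reads, the share that passed was 62.3%, so a small p was common at this depth.

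**Figure D1:**
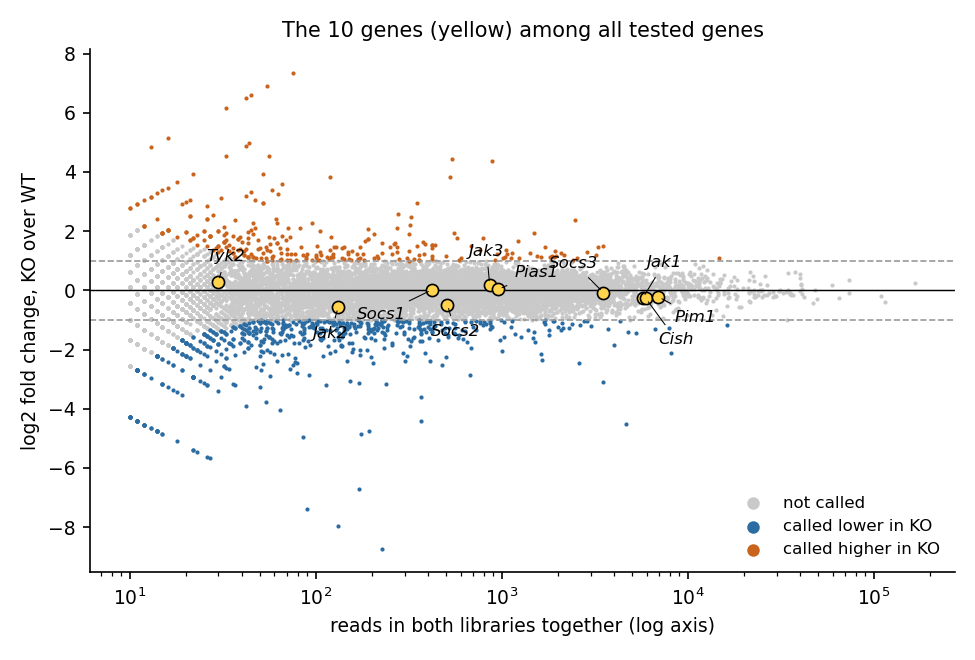
Each point is 1 of the 10881 tested genes, with its reads in both libraries together on a log axis and its log2 fold change (KO over WT) on the vertical axis; dashed lines mark a 2-fold change, blue and orange points were called lower and higher in KO, and yellow points are the 10 genes. All 10 sit between the dashed lines, from -0.56 for *Jak2* to 0.29 for *Tyk2*. Points far from 0 at the left edge come from few reads, and their position depends on the 0.5 added to each count.

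Levels were compared between genes as reads per kilobase of the longest annotated transcript per 1000000 reads (RPKM). In the WT library *Pim1* was highest at 215 RPKM, followed by *Socs3* at 110.0, *Cish* at 107.7, *Jak1* at 98.7, *Jak3* at 15.5, *Pias1* at 13.2, *Socs1* at 11.2, *Socs2* at 10.8, *Jak2* at 2.42 and *Tyk2* at 0.436 RPKM. The order was the same in the KO library, where the highest was *Pim1* at 185 RPKM and the lowest *Tyk2* at 0.536 RPKM. Neighbours with overlapping 95% counting intervals in WT were *Socs3* and *Cish*, *Jak3* and *Pias1*, *Pias1* and *Socs1*, and *Socs1* and *Socs2*, whereas in KO they were *Cish* and *Jak1*, and *Pias1* and *Socs1*. The order also depends on the length used: with the longest protein-coding transcript, *Cish* was at 177 RPKM in WT and 147 in KO, above *Socs3* in both, and *Socs2* was at 20.7 RPKM in WT, above *Jak3* at 15.6, and at 14.8 RPKM in KO, above *Pias1* and below *Jak3*. These levels have a further limit: the deposited counts are of unique reads, and tested genes with 1, 2 and 3 or more RefSeq mRNAs had median WT levels of 12.9, 6.33 and 4.26 RPKM. *Ptprc*, which encodes the pan-leukocyte protein CD45 and has 3 RefSeq mRNAs, had 35 reads in WT and 13 in KO. Whether reads shared by several transcripts were lost was not tested. *Socs3* and *Pias1* have 1 RefSeq mRNA, *Socs2* has 4 and the other members have 2 each, so the order between them may not be that of their transcripts in the cell. The median log2 fold change between the libraries was 0.02, -0.03 and -0.07 for tested genes with 1, 2 and 3 or more RefSeq mRNAs.

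**Figure D2:**
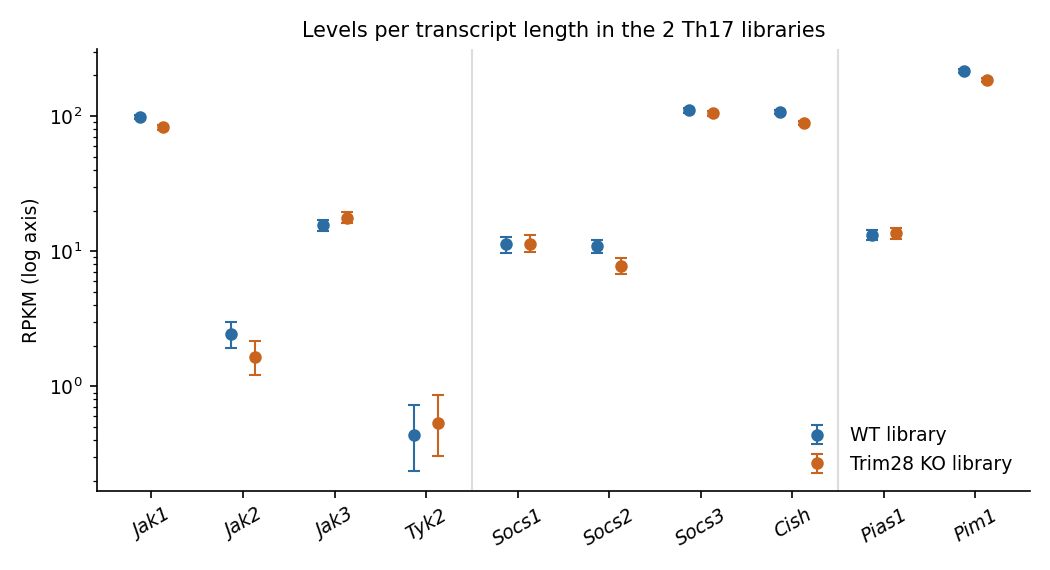
RPKM of each gene on a log axis in the WT (blue) and KO (orange) library, grouped as JAK kinases, SOCS family and *Pias1* with *Pim1*; bars are exact Poisson 95% intervals and cover counting error only. *Pim1*, *Socs3*, *Cish* and *Jak1* lie between 82.6 and 215 RPKM in both libraries, and *Tyk2* lies below 1 RPKM.

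*Jak1* (mm10 chr4:101151974-101265282), the kinase that most of these receptors share, had 3221 reads in WT and 2506 in KO. This is 484 CPM against 405 CPM, a level in KO of 0.836 of WT, with a log2 fold change of -0.26 (95% interval -0.33 to -0.18; adjusted p = 1.742e-10 by the exact binomial test). The shift was small but outside counting error. *Jak3* (chr8:71676383-71690577), the partner of the common gamma chain, had 418 reads in WT and 443 in KO, which is 62.9 CPM and 71.6 CPM. Its log2 fold change was 0.19, with an interval from -0.01 to 0.38 that held 0. On the same strand, 404 exon bases of *Jak3* are shared with *Insl3*, a hormone gene that had 37 reads in WT and 41 in KO.

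*Jak2* (chr19:29251803-29313095), used by gp130 and the interferon-gamma and IL-12 and IL-23 receptors, had 81 reads in WT and 51 in KO. The level was 12.2 CPM in WT and 8.25 CPM in KO, and the log2 fold change of -0.56 had an interval from -1.10 to -0.04 and an adjusted p of 0.0647 (exact binomial test). A 2-fold decrease of *Jak2* was therefore within counting error. *Tyk2* (chr9:21104068-21131393), the other kinase of the IL-12, IL-23 and type I interferon receptors, had 14 reads in WT and 16 in KO. With so few reads its interval ran from -0.83 to 1.44, which left a 2-fold increase within counting error.

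Taking the 4 kinases as a set, *Jak1* made up 84.3% of the summed JAK RPKM in WT and 80.6% in KO, and *Jak3* made up 13.3% and 17.3%. *Jak2* accounted for 2.07% and 1.60%, and *Tyk2* for 0.372% and 0.523%. Of 3734 JAK reads in WT, 11.2% (exact Clopper-Pearson 95% interval 10.2 to 12.3%) were from *Jak3*, and of 3016 in KO, 14.7% (13.4 to 16.0%). For *Jak1* the shares of reads were 86.3% (85.1 to 87.4%) and 83.1% (81.7 to 84.4%), so for both kinases the intervals of the libraries did not overlap. The RPKM ratio of *Jak1* to *Jak3* was 6.36 in WT and 4.67 in KO, a log2 change of -0.45. Summed over the 4 kinases, the level was 561 CPM in WT and 488 CPM in KO, a log2 fold change of -0.20 that mostly reflects *Jak1*.

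*Socs3* (chr11:117966079-117970336), the brake on gp130, had 1866 reads in WT and 1650 in KO. At 281 CPM and 267 CPM its log2 fold change was -0.07, and the interval from -0.17 to 0.02 held 0 (adjusted p = 0.232, exact binomial test). *Socs1* (chr16:10783808-10785536) had 217 reads in WT and 205 in KO, or 32.6 CPM and 33.1 CPM, with a log2 fold change of 0.02 and an interval from -0.26 to 0.30. For both of these direct JAK inhibitors the libraries differed by less than counting error, and the intervals left out a change of 1.5-fold in either direction.

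The pair best known as STAT5 products were lower in KO beyond counting error, though below 2-fold. *Cish* (chr9:107296659-107302784) had 3363 reads in WT and 2587 in KO. Its level was 506 CPM against 418 CPM, a log2 fold change of -0.27 (95% interval -0.35 to -0.20; adjusted p = 3.8e-12, exact binomial test). *Socs2* (chr10:95383903-95417321) had 306 reads in WT and 204 in KO, or 46.0 CPM and 33.0 CPM. With a level in KO of 0.717 of WT and a log2 fold change of -0.48 (-0.74 to -0.22; adjusted p = 8.527e-04, exact binomial test), it showed the largest shift among the 8 members with narrow intervals. Summed over *Socs1*, *Socs2*, *Socs3* and *Cish*, the level was 865 CPM in WT and 751 CPM in KO, a log2 fold change of -0.20, the same as for the summed kinases.

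Since SOCS genes are known as products of cytokine signalling, the promoters were searched for STAT-type and interferon-response type motifs, and the stretches with matches are shown. RefSeq start sites (GRCm38.p6) gave a window of 250 bases before and 50 after the start for 9 of the 10 genes, 2 of them for *Pim1*. Searched on both strands, TTCNNNGAA, the gamma-activated site to which STAT dimers bind, was found in 8.29% of 32817 promoter windows of all genes, TTCNNNNGAA, the spacing that STAT6 prefers, in 6.94%, and GAAANNGAAA, an interferon-response type motif, in 3.43%. *Socs3* held 1 gamma-activated motif, 154 bases before its start, and *Cish* held 2, which begin at bases 1 and 12 of the annotated transcript. At least 2 such motifs were found in 0.457% of all windows. *Socs1* held the interferon-response type motif 2 times, overlapping by 4 bases, and the 3 motifs were not found in the windows of the 4 JAK genes, *Pias1* or *Pim1*. A match describes letters in a window and is not evidence that a factor binds there. The sequences are given 5′ to 3′ on the strand of the gene with the matches in capitals. The first is chr11:117969367-117969526 (minus strand), the 160 bases before the *Socs3* start of the promoter table, which lies 970 bases inside the gene interval given above, so another annotated start lies upstream of this stretch; the second is the 20-base stretch chr9:107296659-107296678 (plus strand) of *Cish* that holds both motifs; and the third is chr16:10785537-10785656 (minus strand), the 120 bases before the *Socs1* start.
Socs3: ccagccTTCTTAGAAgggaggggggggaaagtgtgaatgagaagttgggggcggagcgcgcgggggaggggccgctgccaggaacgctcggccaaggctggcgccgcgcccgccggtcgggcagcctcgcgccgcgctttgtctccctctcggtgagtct
Cish: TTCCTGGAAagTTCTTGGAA
Socs1: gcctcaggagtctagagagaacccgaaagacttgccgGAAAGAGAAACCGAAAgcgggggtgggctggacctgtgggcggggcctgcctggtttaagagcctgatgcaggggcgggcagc
Set beside the reads, *Socs3* with 1 gamma-activated motif and *Cish* with 2 had log2 fold changes of -0.07 and -0.27, and *Socs1* with the interferon-response type motif had 0.02. The 4 JAK genes, *Pias1* and *Pim1*, with none of these motifs in their windows, ran from -0.56 (*Jak2*) to 0.29 (*Tyk2*). A relation between motifs and fold changes was not tested.

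*Pim1* (chr17:29490785-29496111) had the most reads of the 10 genes, 3852 in WT and 3086 in KO. The level was 579 CPM in WT and 499 CPM in KO, a log2 fold change of -0.22 (95% interval -0.28 to -0.15; adjusted p = 5.011e-09, exact binomial test), which is a level in KO of 0.861 of WT. *Pias1* (chr9:62878366-62980879) had 490 reads in WT and 467 in KO, or 73.7 CPM and 75.5 CPM, with a log2 fold change of 0.04 and an interval from -0.15 to 0.22. Only *Pim1* of this pair differed beyond counting error.

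Of 9 further SOCS, PIAS and PIM genes 8 were tested and 0 were called, beside 8.11% of all tested genes. Their median log2 fold change was -0.24, and -0.0026 after the correction for transcript length described below. *Pim2*, a second cytokine-induced PIM kinase, had 2907 reads in WT and 2112 in KO, a log2 fold change of -0.36 with an adjusted p of 6.373e-17 (exact binomial test). *Pias4*, a SUMO ligase like PIAS1, went the other way, with 499 reads in WT and 609 in KO and a log2 fold change of 0.39 (adjusted p = 3.58e-05, exact binomial test). *Pim3* had 500 and 488 reads. Among the less studied SOCS genes, *Socs4* had 129 and 93 reads, *Socs5* 179 and 121, *Socs6* 147 and 126, and *Socs7* 562 and 407, with log2 fold changes of -0.37, -0.46, -0.12 and -0.36, of which that of *Socs7* was at 0.0036 after the length correction. *Pias3* was at 5 reads in each library, and *Pias2* at 1 read in WT and 0 in KO, too few for a comparison.

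**Figure D3:**
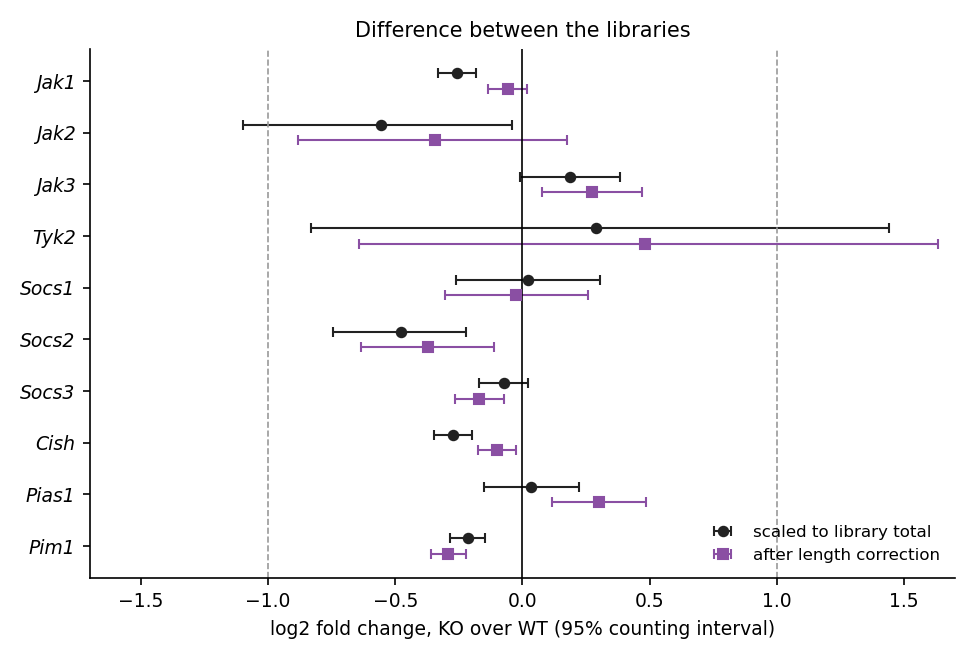
Log2 fold change (KO over WT) of each gene scaled to the library total (black circles) and after centring on the transcript length curve (purple squares), with exact Clopper-Pearson 95% intervals for counting error; dashed lines mark a 2-fold change. *Jak1* moves from -0.26 to -0.06, *Pias1* from 0.04 to 0.30, and the intervals of *Jak2* and *Tyk2* are the widest.

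Transcript length moved with the difference between the libraries, and this touches several of the small shifts. Over the 10792 tested genes with a known length, Spearman's rho between length and log2 fold change was -0.37, a description across genes of 1 pair of libraries. When each log2 fold change was centred on a loess curve against length, the *Jak1* value was -0.06 (interval -0.13 to 0.02; adjusted p = 0.245, exact binomial test), so its lower level in KO was no more than that of other genes of its length, 4906 bases. *Cish* went to -0.10 with the length of its longest transcript, 4697 bases, and to -0.30 with that of its longest protein-coding transcript, 2850 bases. *Socs2* remained lower under either length, at -0.37 with 4242 bases and -0.60 with 2222 bases, and *Pim1*, whose transcript is short at 2698 bases, was at -0.29. *Socs3*, also short at 2552 bases, went to -0.17 with an interval from -0.27 to -0.07. *Jak3* went to 0.27 (0.08 to 0.47) and *Pias1*, the longest at 5564 bases, to 0.30 (0.12 to 0.49). After this correction and with no fold limit, 4 genes were lower (*Socs2*, *Socs3*, *Cish* and *Pim1*) and 2 higher (*Jak3* and *Pias1*), beside 17.4% and 20.8% of all genes. The members' median was then -0.08, against 0.003 over all genes. The log2 change of the *Jak1* to *Jak3* ratio stayed negative at -0.33, whereas that of *Socs3* to *Cish* was 0.20 uncorrected, -0.07 with the longest transcript and 0.15 with the coding transcript. With a curve against GC content in place of length, *Jak3* was at 0.09 and *Pias1* at 0.17. *Socs2*, *Socs3*, *Cish*, *Pim1* and *Jak1* were then at -0.38, -0.15, -0.31, -0.28 and -0.18. The cause of the trend with transcript length was not tested.

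**Figure D4:**
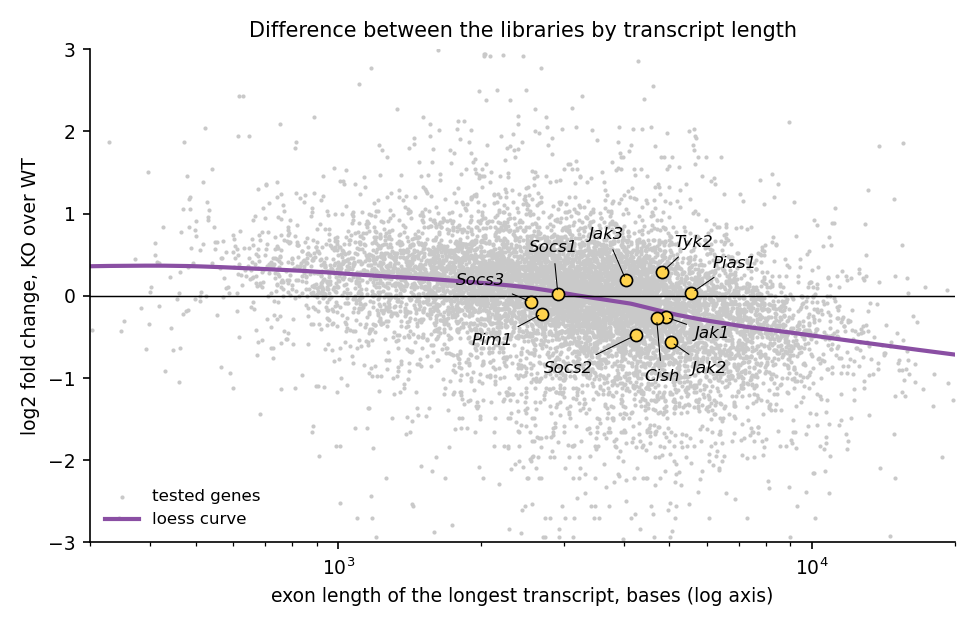
Log2 fold change (KO over WT) of the tested genes against the exon length of the longest transcript in bases (log axis), with the loess curve in purple and the 10 genes in yellow, and genes beyond the plotted range are left out. The curve runs downward with length, through -0.20 at *Jak1* and 0.08 at *Pim1*, so *Jak1* lies close to it and *Pim1* below it.

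The rest of the pathway was counted in lists of receptors, STATs, phosphatases, cytokines and target genes. Together with the 9 further SOCS, PIAS and PIM genes above, of which 0 were called, these held 88 genes. Of the 72 that were tested, 11 were called lower and 1 higher, beside 5.53% lower and 2.57% higher of all tested genes. Of 13 phosphatase, adaptor and modifier genes, all tested, 1 was called in each direction, beside the same shares. *Usp18*, an interferon-induced ISG15 protease that also holds JAK1 off the type I interferon receptor, had 8 reads in WT and 111 in KO, a log2 fold change of 3.82 with an interval from 2.87 to 5.15. *Ptprc*, whose product CD45 can dephosphorylate JAKs, was at -1.29 on its few reads, and after the length correction its adjusted p was 0.0686 (exact binomial test).

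Among the STAT genes, *Stat4*, which responds to IL-12, was called lower and had 521 reads in WT and 239 in KO, a log2 fold change of -1.02. This value lay close to the 2-fold limit. The call was kept with the length correction (-1.05) and lost with TMM scaling (-0.9987), DESeq2 scaling (-0.9993) and a GC correction (-0.92). It was also lost with edgeR's exact test when variation between cultures was assumed at a coefficient of variation of 0.2. The median log2 fold change over the 7 genes of this list was -0.10.

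Among 19 tested receptor chains 1 was called, *Il27ra*, the IL-27 receptor chain that pairs with gp130, with 1857 reads in WT and 765 in KO and a log2 fold change of -1.17. The list's median was -0.17. Of 15 cytokine genes 6 were tested and 2 were called lower, beside 5.53% of all tested genes. *Il21*, made by Th17 cells and read through JAK1 and JAK3, had 3537 reads in WT and 1233 in KO, which gave a log2 fold change of -1.42. For *Il10* the counts were 26 and 0, which is at least 8.06-fold lower when 3 reads are taken as the limit in the KO library.

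Of 11 genes known as IL-2 and STAT5 targets 10 were tested. *Myc* was not listed for either library and was therefore given 0 reads, as was the CD4 T cell marker *Trac*. Whether reads of these genes were lost in counting was not tested, so the 0 is not a measure of their expression. Of the 10 tested targets, 0 were called, 8 had values below 0 and the median log2 fold change was -0.40. With no fold limit 6 were lower and 0 higher, beside 22.4% and 21.4% of all tested genes. After the length correction and with no fold limit 5 were lower and 1 higher, beside 17.4% and 20.8%, and the median was -0.30. *Bcl2l1*, which encodes the survival protein BCL-XL, showed the largest difference of those with at least 100 reads. It had 1193 reads in WT and 766 in KO and a log2 fold change of -0.53. Of 15 genes known as IL-6 and STAT3 targets in T cells, 7 were called lower and 0 higher, with a median of -0.76 that was the same with *Il10* at its bound. The called genes with the most reads were *Maf*, a transcription factor that promotes *Il21* and *Il10*, with 6699 and 1431 reads, *Il21*, the cytokines *Il17f* (3143 and 345 reads) and *Il17a* (2226 and 381 reads), *Ahr*, which encodes the aryl hydrocarbon receptor (816 and 185 reads), and *Rora*, which encodes a partner of RORγt (258 and 45 reads). Their log2 fold changes were -2.12, -1.42, -3.08, -2.44, -2.03 and -2.40. Other genes of this list went up: with a 1.5-fold limit 2 were higher, *Batf* at 0.76 and *Bcl3* at 0.63, named here after their values were seen. The difference between the lists was not tested. *Socs3* and *Pim1*, which are also induced by STAT3 and are not in that list, were at -0.07 and -0.22. The background over all tested genes was again 5.53% lower and 2.57% higher, and these lists were chosen with results of the data known, so their counts describe the libraries.

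**Figure D5:**
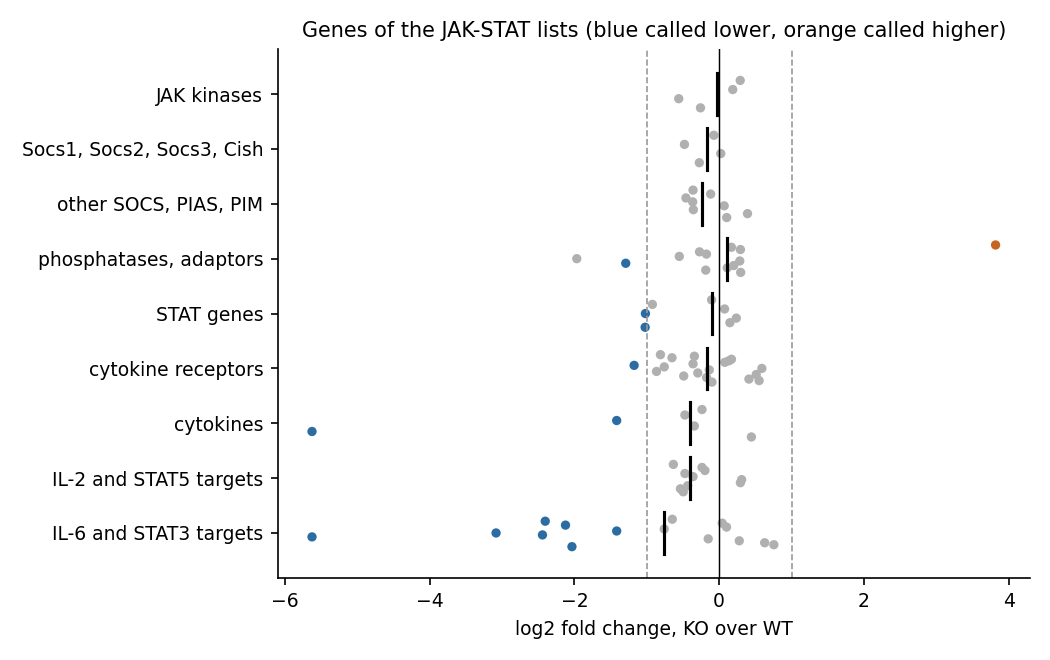
Log2 fold change (KO over WT) of each tested gene of the pathway, 1 row per list, with the list's median as a black line and dashed lines at a 2-fold change; some genes stand in more than 1 list, and *Il10*, with 0 reads in KO, is drawn at -5.62, which depends on the 0.5 added to each count. No gene of the JAK, SOCS, PIAS and PIM rows reaches a dashed line, 7 of the IL-6 and STAT3 targets do, and *Usp18* stands alone on the right at 3.82.

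A test that allows for variation between cultures needs a value for it, which 1 library per genotype cannot give. With an assumed coefficient of variation of 0.1, edgeR's exact test gave 0 of the 10 genes an adjusted p below 0.05, and the smallest adjusted p was 0.204, for *Socs2*. Scaled to library totals, the shifts of *Jak1*, *Socs2*, *Cish* and *Pim1* were thus larger than counting error, and not larger than counting error and that assumed variation together. After the length correction, that of *Jak1* was within counting error (-0.06, interval -0.13 to 0.02).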

How the data were processed

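The authors deposited, for each RNA-seq library, raw counts of unique reads per gene; the total in the file header equals the sum of the counts. Per the study's methods, reads were mapped to mm10 with SOAP2, whereas the submitters' processing notes list Bowtie and HTSeq without a role; the counter's settings and the annotation are not given in the sources used here. Genes missing from a table were given 0 reads. Counts were scaled to library totals (CPM), 0.5 was added before log2 fold changes, and every gene with 10 or more reads in the pair of libraries entered an exact binomial test (two-sided; SciPy 1.17.1) with Benjamini-Hochberg adjustment; a call needed an adjusted p below 0.05 and a 2-fold change, the limits of the study. Since 1 library per genotype leaves edgeR nothing to estimate the spread from, its exact test (version 4.0.16) was run with assumed variation. Intervals are exact Clopper-Pearson or Poisson at 95%. Lengths and 3′ ends came from GENCODE M21, positions and promoters from RefSeq (GRCm38.p6, the assembly of mm10); of 13704 names 13050 matched a symbol, 595 an older symbol and 59 none. Loess curves (statsmodels 0.14.6) used a span of 0.3. The scripts were tested on simulated data. Named genes outside the 10 were the other SOCS, PIAS and PIM genes and, per list, up to 6 called genes with the most reads or else the gene with the largest change among those with at least 100 reads. The members and lists were chosen with earlier results of these data known. The result of 1 named gene is not reported here. The 6 ChIP-seq and input samples were not analysed here.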

Additional observations from a re-analysis of the deposited data

How the results depend on the processing

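No paired analysis was possible because each genotype has 1 library, and no library could be left out. Of the 10 members, 0 were called in either direction under each of 13 other settings (TMM, DESeq2 and upper-quartile scaling, 5 added to each count, other read minimums, length and GC corrections, edgeR with assumed coefficients of variation of 0.1, 0.2 and 0.4, a 1.5-fold limit and an adjusted p limit of 0.001) and under a correction with the length of protein-coding transcripts, added after seeing the data. In 6 of the 13 settings (other read minimums, the assumed variation and the p limit) the fold changes and the fold limit stayed as they were, so no call could have been added. The TMM, DESeq2 and upper-quartile scalings moved log2 fold changes by no more than 0.02. The largest value of a member was -0.56 (*Jak2*), or -0.51 with 5 added to each count, so these settings could hardly add a call either. As further settings added after seeing the data, dropping the fold limit gave 4 members lower, and dropping it after the length correction gave 4 lower and 2 higher. The median of the members kept its direction throughout. Of 160 values for single members, 10 passed a threshold that the reported value did not, each with no fold limit, and 3 reversed: *Socs1* went to -0.024 with the length correction, with or without a fold limit, and to -0.056 with the GC correction. Of 349 values for the 22 other named genes, 25 lost their call under the 13 settings and 3 under the added ones, 8 gained one with a setting added later, and the direction reversed for 4 genes, of which *Socs7* at -0.36 had been outside counting error: *Socs4* at 0.0091 with coding transcript lengths, *Socs6* at 0.19, 0.20 and 0.031, *Socs7* at 0.0036 and 0.021, and *Pim3* at -0.042, -0.023 and -0.034, under the longest transcript length, coding transcript length or GC correction. With the union of exons as length, *Jak1*, *Jak2* and *Jak3* took 82.2%, 2.97% and 14.4% of JAK RPKM in WT and 78.5%, 2.29% and 18.7% in KO; with coding length *Jak1* and *Jak3* took 85.8% and 11.7% in WT and 82.5% and 15.3% in KO, so the order held. The counts over the other lists, 11 lower and 1 higher, came to 17 and 4 with a 1.5-fold limit, 32 and 14 with no fold limit, 25 and 15 with no fold limit after the length correction, 7 lower with a coefficient of variation of 0.2, and 0 and 0 with 0.4; with at least 10 reads in each library 0 were higher, since *Usp18* has 8 reads in WT. Of all tested genes, 11.5% were lower and 7.02% higher with the 1.5-fold limit, and 22.4% and 21.4% with no fold limit. After the length correction with no fold limit, the shares were 17.4% and 20.8%. All alternatives for these lists were added after seeing the data. Depth limits *Jak2* and *Tyk2*, and the RPKM order rests on unique reads.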
